A study of Mus musculus with 9 samples.

Results

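Binding of the glucocorticoid receptor (GR) and the mineralocorticoid receptor (MR) was examined at 10 core circadian clock genes of the mouse, Per1, Per2, Per3, Cry1, Cry2, Nr1d1, Nr1d2, Arntl, Clock and Dbp. A MACS2 peak was assigned to a gene when its summit lay in the GENCODE gene body or within 20 kb of it in GRCm38 (mm10). The 10 genes were read against all 21938 protein-coding genes on chromosomes 1 to 19, X and Y. Their windows held 35 of the 30508 peaks in the 6 lists, and joining overlapping peaks gave 19 sites.

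N2A (Neuro2A) mouse neuroblastoma cells were transiently transfected with expression plasmids for both EGFP-GR and mCherry-MR, so every sample came from cells that received both receptors. N2A cells have no MR of their own and some GR, and only the tagged receptors were captured, through EGFP for GR and mCherry for MR. The cells received vehicle for 20 minutes, 100 nM corticosterone (CORT) for 20 minutes, or the same CORT pulse and then 2 washes and 40 minutes without steroid (washout). ChIP-nexus, a chromatin immunoprecipitation in which an exonuclease trims the DNA up to the bound protein, was run with 3 replicates per condition, which the authors combined before peaks were listed. There was therefore 1 list per receptor and treatment, with no spread between replicates, and no comparison here carries a test. In the study's calls on single replicates after CORT, far fewer GR than MR sites recurred in at least 2 of the 3. Which of the peaks below were among them is not known from these files. Receptor levels were those of a transient transfection, and the files hold binding sites and no expression, so the neuroblast label was not checked against marker genes.

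The lists held 64 peaks for GR and 73 for MR after vehicle, 10602 for GR and 14638 for MR after CORT, and 246 for GR and 4885 for MR after washout. Read depth is not known from these files. Peak strength was the −log10 p of the peak against input chromatin, which grows with depth and so was ranked within a list and not compared between lists as an amount of binding. Peaks of equal −log10 p shared the better rank. A gene without a peak fell below what that list could detect, which is not evidence that the receptor was absent.

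The mammalian clock is a transcription feedback loop. CLOCK and BMAL1, the product of Arntl, bind E-box sequences and activate the Per and Cry genes, whose products return to repress them. Nr1d1 and Nr1d2 encode the REV-ERB nuclear receptors, which repress Arntl, and Dbp encodes a PAR bZIP factor through which the clock drives output genes. Glucocorticoids are a known timing signal for clocks outside the brain's central pacemaker, and Per1 is a classic GR target gene. GR and MR recognise the same sequence, the glucocorticoid response element (GRE), an inverted repeat of the hexamer AGAACA with a spacer of 3 bases.

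Of the 19 sites, 10 were listed for more than 1 receptor or treatment. Their sequences are shown because they were the recurrent sites and differ in how closely they match the GRE consensus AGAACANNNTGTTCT. Each run of 51 bases is the plus strand of GRCm38, centred on the closest match near the summit of the strongest peak, and capitals mark the 15 bases of that match. A site is named by the gene and by the number of base pairs from its annotated start to that summit, in the direction of transcription.
Per1 +1865: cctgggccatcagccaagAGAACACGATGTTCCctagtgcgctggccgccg
Per1 +4190: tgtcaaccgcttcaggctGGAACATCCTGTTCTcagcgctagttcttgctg
Per2 +449: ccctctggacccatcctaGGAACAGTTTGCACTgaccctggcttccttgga
Per2 +22829: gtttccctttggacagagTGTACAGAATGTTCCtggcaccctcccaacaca
Cry2 +1159: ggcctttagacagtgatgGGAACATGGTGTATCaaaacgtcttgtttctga
Cry2 −8581: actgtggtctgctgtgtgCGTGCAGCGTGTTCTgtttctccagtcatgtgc
Cry2 +42261: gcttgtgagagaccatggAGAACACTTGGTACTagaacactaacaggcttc
Nr1d1 +2631: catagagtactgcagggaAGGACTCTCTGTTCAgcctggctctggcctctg
Nr1d1 +20922: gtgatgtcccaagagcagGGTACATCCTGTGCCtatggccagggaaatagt
Clock −978: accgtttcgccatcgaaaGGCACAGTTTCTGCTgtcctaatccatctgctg

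Of the 12 fixed positions of the consensus, the Per1 +1865 match, at chr11:69097058-69097108, and the Per1 +4190 match, at chr11:69099398-69099448, each missed 1. The Cry2 +42261 match (chr2:92391733-92391783) missed 2. The matches at Per2 +449 (chr1:91458802-91458852), Per2 +22829 (chr1:91436464-91436514), Cry2 −8581 (chr2:92442585-92442635) and Nr1d1 +2631 (chr11:98772682-98772732) missed 3. Those at Cry2 +1159 (chr2:92432857-92432907), Nr1d1 +20922 (chr11:98754400-98754450) and Clock −978 (chr5:76305744-76305794) missed 4. The AGAACA hexamer was complete at Per1 +1865 and Cry2 +42261, and its reverse complement TGTTCT at Per1 +4190 and Cry2 −8581.

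After CORT, 6 of the 10 genes had a GR peak (Per1, Per2, Cry2, Nr1d1, Arntl and Clock), where 26.3% of all protein-coding genes had one. An MR peak after CORT was listed at 5 of the 10, the same genes without Arntl, where 30.2% of all genes had one. All 5 had peaks of both receptors, as did 21.7% of all genes. After washout, 4 genes had an MR peak (Per1, Per2, Cry2 and Nr1d1), against 14.3% of all genes. The same 4 had all 3 kinds of peak, GR after CORT, MR after CORT and MR after washout, a combination found at 11.8% of all genes. At Nr1d1 the only MR washout peak lay past the gene, in an intron of the neighbouring gene Thra. GR after washout was listed at 0 of the 10 genes, with 1.02% of all genes listed, and both receptors after vehicle were listed at 0 of the 10, with 0.109% of all genes listed for GR and 0.109% for MR. Arntl alone among the 10 had a GR peak and no MR peak after CORT, which 4.61% of all genes had. Per3, Cry1, Nr1d2 and Dbp, 4 of the 10, had no peak in any list, as had 64.4% of all genes.

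**Figure D1:**
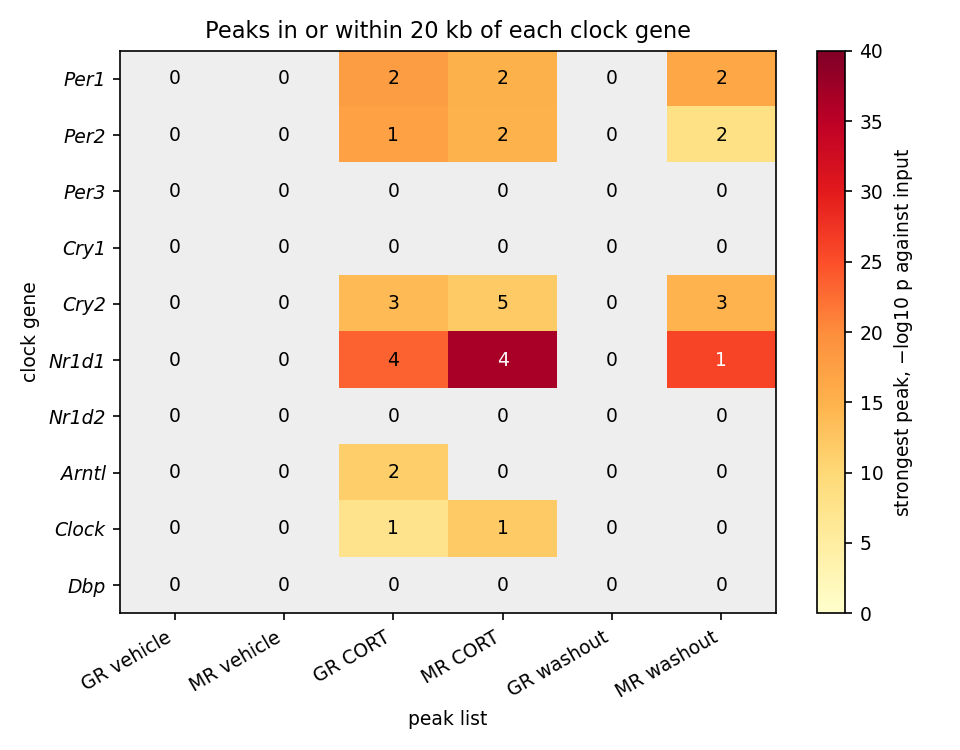
Number of peaks with a summit in or within 20 kb of each clock gene (rows) in each of the 6 peak lists (columns), with the colour giving the −log10 p against input of the strongest peak and grey meaning no peak. Per1, Per2, Cry2 and Nr1d1 were listed for GR after CORT, MR after CORT and MR after washout, and the vehicle and GR washout columns hold 0 throughout.

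The clock genes were longer than most, with a median gene length of 38044 bp against 17425 bp over all protein-coding genes, and a longer window has more room for a peak. Per 100 kb of window, the clock genes held 1.56 GR peaks after CORT, where the windows of all protein-coding genes held 0.586. For MR the values were 1.68 against 0.8 after CORT and 0.961 against 0.262 after washout. The clock windows covered 832 kb in all, so these densities rest on 13, 14 and 8 peaks. Cry2 supplied 3, 5 and 3 of them, Nr1d1 supplied 4, 4 and 1, and 4 genes supplied none. The nearest transcript start was that of the clock gene for 9, 9 and 6 of the peaks.

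Among the repressors of the loop, Per1 (ENSMUSG00000020893, chr11:69095217-69109960, plus strand) held 2 intronic sites, both with GR. At Per1 +1865, GR after CORT had a peak at chr11:69097012-69097135 with a −log10 p of 15.7, rank 861 of 10602. MR after washout had one at chr11:69097045-69097125 with 16.5, rank 505 of 4885. MR after CORT was not listed there, and its nearest summit was 2339 bp from the GR summit. The site was thus in the shorter MR list made after the steroid had been removed and not in the longer one made while it was present. The order is uncommon: 1 of the 13 GR CORT peaks at clock genes and 234 of all 10602 (2.21%, 95% Wilson interval 1.94 to 2.5) overlapped an MR peak after washout but none after CORT. Intervals here and below cover counting error only.

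The Per1 +4190 site also lay in an intron, 459 bp past the start of a shorter annotated transcript. GR after CORT had a peak at chr11:69099296-69099477 with a −log10 p of 17.8, rank 621. MR after CORT had one at chr11:69099386-69099449 with 15.1, rank 1799 of 14638, and MR after washout one at chr11:69099375-69099450 with 16.2, rank 538. The GR and MR summits after CORT were 11 bp apart. All 3 peaks were therefore in the stronger part of their lists. A further MR peak after CORT stood before the gene, at −5617 and chr11:69089557-69089622, with 7.83 and rank 8979, and it lay in a non-coding exon of Vamp2, whose transcript start was nearer than that of Per1.

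Per2 (ENSMUSG00000055866, chr1:91415982-91459324, minus strand) had its main site in the intron just after the start. At Per2 +449, GR after CORT had a peak at chr1:91458725-91458945 with a −log10 p of 17.2, rank 653. MR had 14.9 after CORT, rank 1919, and 7.69 after washout, rank 3444. The site was in the stronger part of both CORT lists and the weaker part of the washout list, where the MR summit lay at +497 instead of +455. A second intronic site, Per2 +22829, was listed for MR alone, with 6.23 after CORT (rank 13295) and 8.28 after washout (rank 3119). Per3 (ENSMUSG00000028957), the third Period gene, had no GR summit after CORT nearer than 131816 bp and no MR summit nearer than 76089 bp after CORT or 96076 bp after washout.

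Cry2 (ENSMUSG00000068742, chr2:92403646-92434043, minus strand), a cryptochrome that represses CLOCK and BMAL1, had 5 sites and 11 peaks. At Cry2 +1159, in an intron, GR had a −log10 p of 12.8 after CORT (rank 1660). MR had 12 after CORT (rank 3406) and 14.7 after washout (rank 712), with the same summit position in both. Before the gene, Cry2 −8581 was listed 3 times but weakly, with 7.92 for GR (rank 6811), 5.85 for MR after CORT (rank 13523) and 5.59 for MR after washout (rank 4782). Between these, MR after CORT had peaks at −3504 with 9.17 (rank 6549) and −3634 with 6.54 (rank 11638), and GR had none. The remaining site, Cry2 +42261, lay past the end of Cry2, in an intron of Mapk8ip1 and 949 bp from the Mapk8ip1 start. It had 14.0 for GR (rank 1474), 9.09 for MR after CORT (rank 7764) and 5.78 for MR after washout (rank 4712), so it stood high in the GR list and near the bottom of the washout list. Cry1 (ENSMUSG00000020038), the other cryptochrome, had no GR summit after CORT within 137806 bp and no MR summit within 187767 bp.

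Nr1d1 (ENSMUSG00000020889, chr11:98767932-98775333, minus strand) encodes REV-ERBα and shares its 3′ end with Thra, the thyroid hormone receptor α gene, on the opposite strand. The strongest peaks assigned to any of the 10 genes lay at Nr1d1 +20922, which is an intron of Thra and 825 bp from its start. GR after CORT had a peak at chr11:98754268-98754514 with a −log10 p of 23.4, rank 215. MR had 36.7 after CORT, rank 59 of 14638, and 25.8 after washout, rank 134 of 4885. The sequence there missed 4 fixed positions of the GRE, more than at either Per1 site. Because 5 of the 6 Nr1d1 sites lay in Thra introns, the gene to which they belong cannot be told from position.

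Nearer Nr1d1, also within Thra, GR after CORT had peaks at +12191 with 11.4 (rank 2345) and at +11838 with 17.2 (rank 653). MR after CORT had a weak peak between them at +12017, with 5.20 and rank 14047, its summit 174 and 179 bp from the GR summits and overlapping neither. A lone MR peak after CORT stood at +20299 with 6.54 (rank 11638). Inside Nr1d1, the intronic site at +2631 was listed for GR after CORT with 8.66 (rank 5190) and for MR after CORT with 9.17 (rank 6549), and for neither after washout. Nr1d2 (ENSMUSG00000021775), which encodes REV-ERBβ, had its nearest CORT summits 64407 bp away for GR and 64383 bp for MR, and its nearest MR washout summit at 64387 bp.

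Of the activators, Arntl (ENSMUSG00000055116, chr7:113207465-113314126, plus strand) had 2 intronic GR peaks after CORT, at +3262 with a −log10 p of 11.4 (rank 2345) and at +41146 with 8.66 (rank 5190). MR was listed at neither. The absence of MR depended on the window, since the nearest MR summit after CORT lay 20963 bp from the gene, just past the limit, with 8.6, and a GR summit lay there at 20933 bp with 7.37. Clock (ENSMUSG00000029238, chr5:76209868-76304792, minus strand) had 1 site before its start. MR after CORT had a peak at −978 with 12 (rank 3406) and GR at −1077 with 7.38 (rank 7262), the summits 99 bp apart, and MR was not listed there after washout.

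Dbp (ENSMUSG00000059824, chr7:45705088-45710203, plus strand), the output gene, also sat just outside the rule. All 3 lists had a summit about 24 kb from it, GR after CORT at 24138 bp with a −log10 p of 10.9, MR after CORT at 24146 bp with 15.9 and MR after washout at 24143 bp with 11.3. Widening the window to 50 kb raised the count to 7 of 10 genes for GR after CORT, 7 for MR after CORT and 5 for MR after washout. The shares of all protein-coding genes rose with the window too, to 37.9%, 42.9% and 22.1%.

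**Figure D2:**
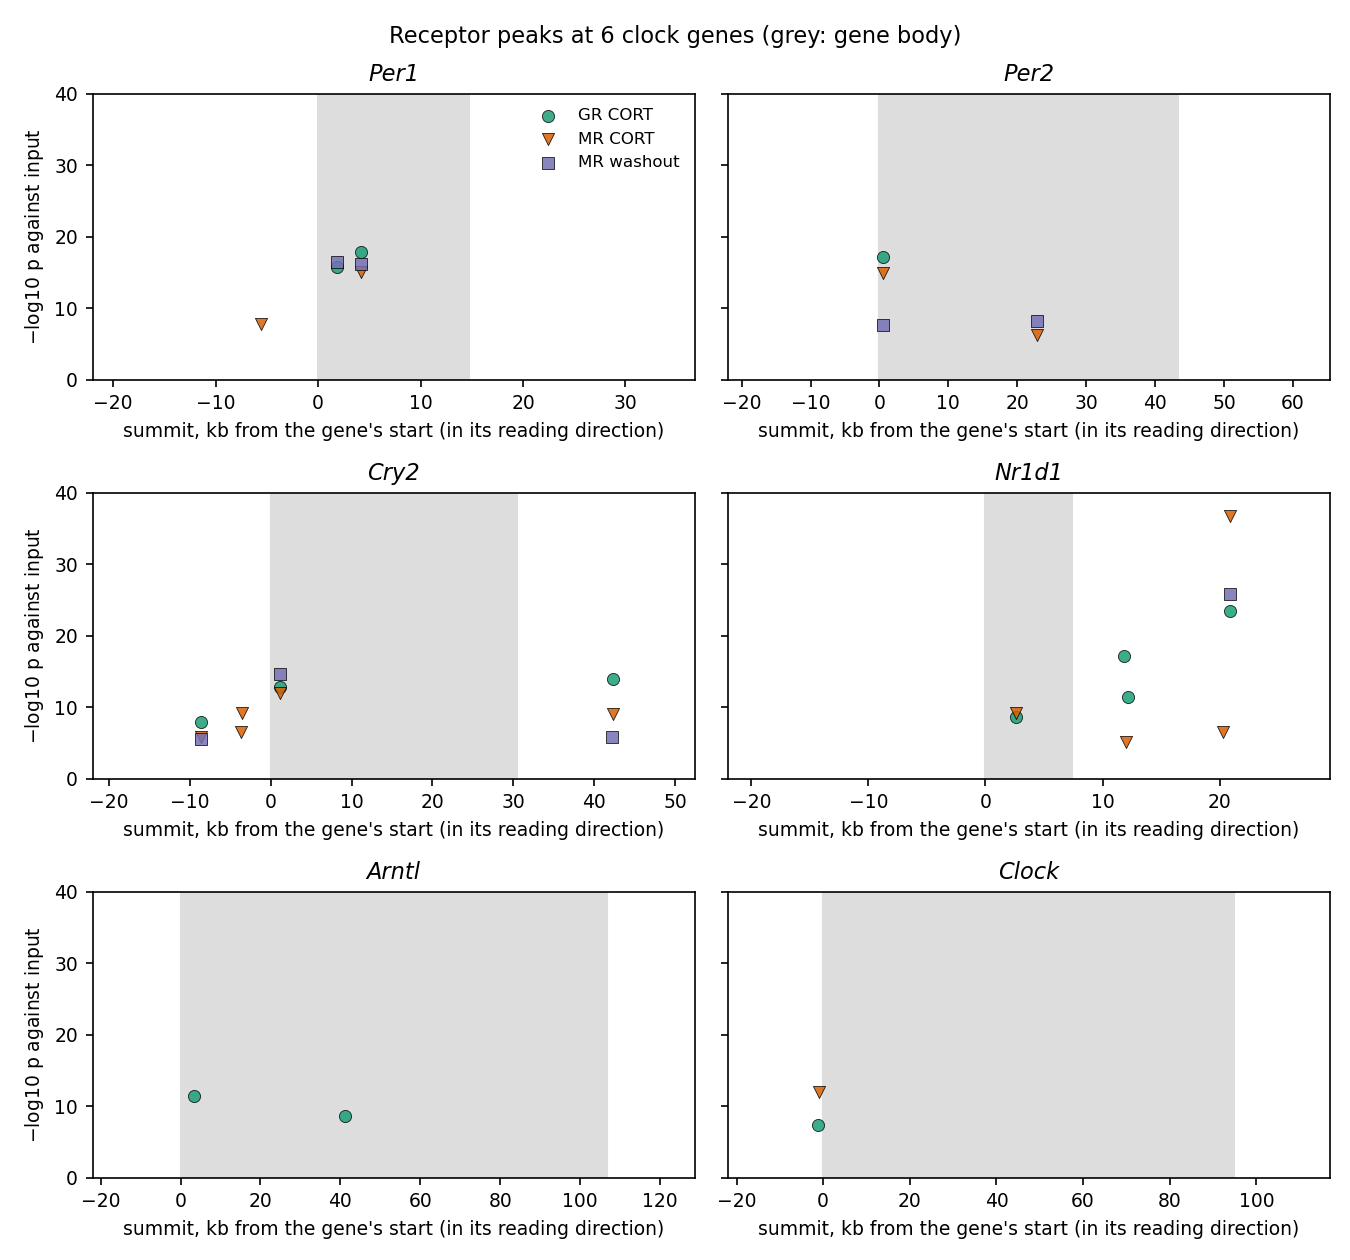
Position of each peak summit (kb from the annotated gene start, in the direction of transcription; grey, gene body) and its −log10 p against input, for the 6 clock genes with a peak. Circles are GR after CORT, triangles MR after CORT and squares MR after washout. Peaks of the 3 lists coincided at Per1 +4190, Per2 +449, 3 Cry2 sites and Nr1d1 +20922, and the tallest, at Nr1d1 +20922, lay beyond the gene.

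By pattern, 6 of the 19 sites were listed for GR after CORT, MR after CORT and MR after washout. A further 2 were listed for GR and MR after CORT only, 1 for GR after CORT and MR after washout, 1 for MR after CORT and after washout, 4 for GR after CORT alone and 5 for MR after CORT alone. By place, 8 sites lay in the gene body of the clock gene, each in an intron, with 5 upstream and 6 downstream. The nearest transcript start was that of the clock gene at 12 sites and of another gene at 7.

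The share of clock-gene peaks common to GR and MR lay within counting error of that at other genes. After CORT, 8 of 13 GR peaks (61.5%, 35.5 to 82.3) overlapped an MR peak by at least 1 bp, against 61.1% (60.1 to 62.2) of the GR peaks assigned to any protein-coding gene. In the other direction, 8 of 14 MR peaks (57.1%, 32.6 to 78.6) overlapped a GR peak, against 48.2% (47.3 to 49.1). In the 8 overlapping pairs the summits were 6 to 99 bp apart, with a median of 10 bp.

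After washout, 7 of the 14 MR CORT peaks at clock genes (50%, 26.8 to 73.2) overlapped an MR washout peak. Over the MR CORT peaks at all protein-coding genes the share was 24.4% (23.6 to 25.2), below that interval. Of the 13 GR CORT peaks, 7 (53.8%, 29.1 to 76.8) overlapped an MR washout peak, against 28% (27 to 28.9), also below the interval. With peaks of a −log10 q of at least 5 alone, both contrasts were lost: 3 of 8 MR CORT peaks (37.5%, 13.7 to 69.4) and 4 of 9 GR CORT peaks (44.4%, 18.9 to 73.3) overlapped an MR washout peak, against 24.1% and 30.5%. These are few peaks, several of them in the same gene, and so not independent of each other. Both contrasts also rest mostly on the same 6 sites, those listed for GR after CORT, MR after CORT and MR after washout. For GR, 0 of the 13 CORT peaks overlapped a GR washout peak, which allows a share of up to 23.1%, and the share at all protein-coding genes, 2.14%, lay within that limit. A lower GR retention at the clock genes was therefore not detectable. Of the 8 MR washout peaks, 7 lay on an MR CORT peak and 7 on a GR CORT peak (87.5%, 52.9 to 97.8 in each case), against 76% and 66.7% at all protein-coding genes.

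**Figure D3:**
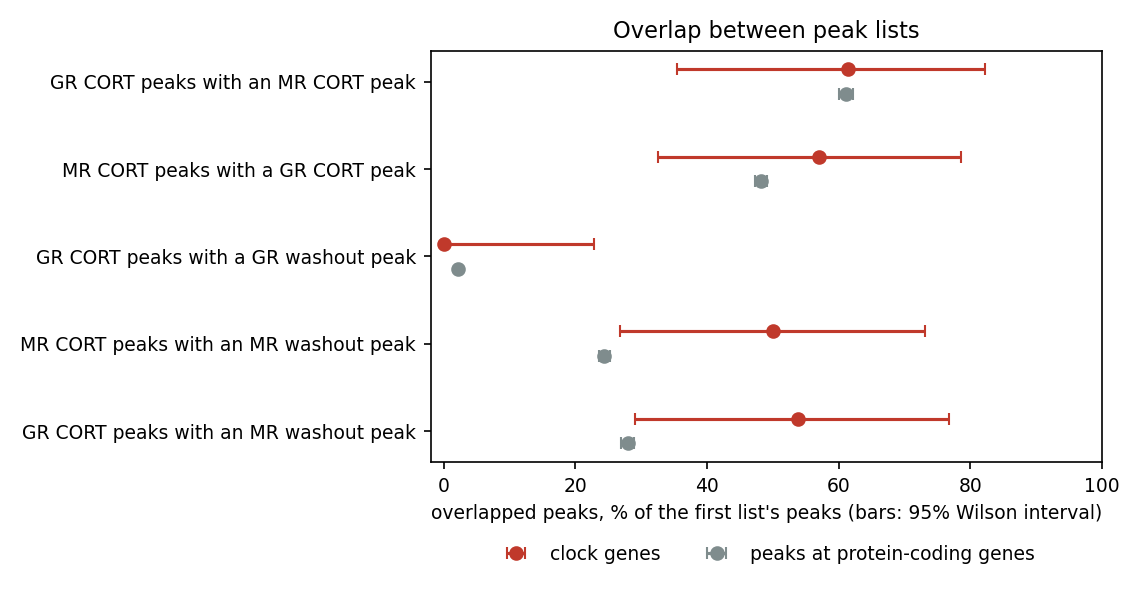
Percentage of the peaks of one list that overlap a peak of another by at least 1 bp, for peaks at clock genes (red) and peaks at all protein-coding genes (grey). Points are percentages and bars 95% Wilson intervals for counting error. The interval of the clock genes excludes the grey point in the 2 rows for overlap with MR washout and includes it in the other 3.

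The GR peaks at clock genes were strong within their list, and the MR peaks were spread. The 13 GR CORT peaks had a median rank 15.7% of the way down the list, from 2.03% for Nr1d1 +20922 to 68.5% for Clock, where GR peaks at all protein-coding genes had a median of 49%. The 14 MR CORT peaks had a median of 48.9% against 44.7%, and ran from 0.403% at Nr1d1 +20922 to 96% at Nr1d1 +12017. The 8 MR washout peaks had a median of 39.2% against 46.7% and split into the Per1 sites, Cry2 +1159 and Nr1d1 +20922, at 14.6% or better, and the others, at 63.8% or beyond.

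**Figure D4:**
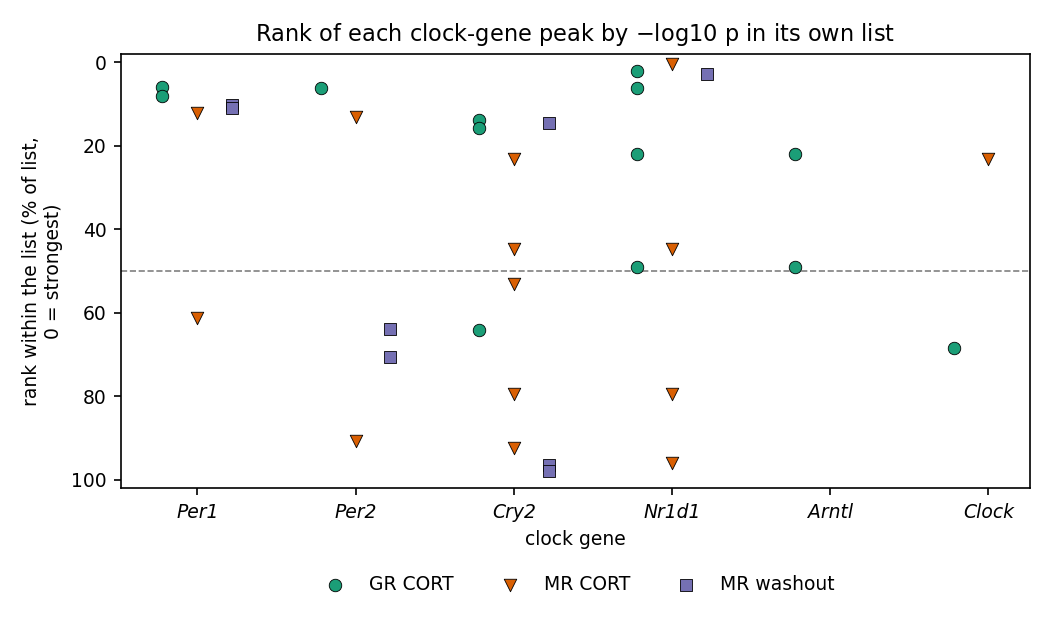
Rank of each clock-gene peak by −log10 p within its own list, as a percentage of the list with 0 the strongest, by gene. Circles are GR after CORT, triangles MR after CORT and squares MR after washout, and the dashed line is the middle of the list. Of the GR peaks all but those at Cry2 −8581 and Clock lie above the line.

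Peaks at the clock genes lay close to transcript starts. Of the GR CORT peaks, 9 of 13 (69.2%, 42.4 to 87.3) lay within 5 kb of the start of a protein-coding transcript, which need not be that of the clock gene, against 30.3% of GR peaks at all protein-coding genes. For MR the shares were 11 of 14 (78.6%, 52.4 to 92.4) against 26.6% after CORT and 6 of 8 (75%, 40.9 to 92.9) against 26.2% after washout. In each list some of these starts were those of Thra and Mapk8ip1, and for MR after CORT also of Vamp2. In the core promoters themselves, 0 summits fell between 250 bases before and 50 after a RefSeq start of the 9 clock genes that had such an entry. These intervals are short and the share over all genes was not counted, so the 0 is not read as avoidance of promoters.

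A GRE match with at most 3 mismatches at the 12 fixed positions lay within 100 bp of the summit at 7 of the 13 GR CORT peaks of clock genes (53.8%, 29.1 to 76.8), against 37.7% of all GR CORT peaks and 14.6% of windows of the same length centred 1000 bp away. For MR after CORT the match was at 6 of 14 (42.9%, 21.4 to 67.4), against 39.9% of all peaks and 15.2% of the flanking windows. For MR after washout it was at 6 of 8 (75%, 40.9 to 92.9), against 45.5% and 15.3%. Each interval includes the value for the whole list. Because the motif is its own reverse complement, 1 scan covers both strands.

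Matches with at most 1 mismatch were rare, at 1.84% of all GR CORT peaks, 2.04% of MR CORT peaks and 3.54% of MR washout peaks. At the clock genes such a match lay under 2 of 13, 1 of 14 and 2 of 8 peaks, and every one of these was at Per1 +1865 or Per1 +4190. Counted over sites at the strongest summit, a match with at most 3 mismatches was found at 7 of the 10 sites shown above (70%, 39.7 to 89.2) and at 0 of the 9 sites listed once, which allows a share of up to 33.3%. At Clock the GR peak had such a match within 100 bp and the stronger MR peak did not. Over all sites the shares were 43.7% of those in 2 or more lists and 35% of those in 1 list. The E-box CACGTG, the element of CLOCK and BMAL1, also its own reverse complement, was within 100 bp of 0 of the 13, 0 of the 14 and 0 of the 8 summits, which allow shares of up to 23.1%, 21.4% and 37.5%. It was near 4.1%, 3.87% and 3.79% of all summits of these lists. In the RefSeq promoters of 9 clock genes (Per2 was not matched) the E-box was found in those of Per1 and Cry1, where 8.09% of all 27025 genes had it, and a GRE match in 0, where 16.4% of all genes had 1.

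Border pairs, in which MACE joins the exonuclease stops on the 2 strands around a protected stretch, were few. Of 3285 pairs for MR after CORT, 2 fell in clock-gene windows. One, of 31 bp at chr11:69099390-69099420, lay within the Per1 +4190 peak and its end reached into the GRE match printed above. The other, of 70 bp at chr11:98753807-98753876, was in the Nr1d1 window on the Thra side and in no peak. The lists for GR after CORT (139 pairs), GR and MR after vehicle (623 and 1332) and GR and MR after washout (568 and 1670) had 0. The GR CORT list was the shortest of the 9 although GR had 10602 peaks after CORT. The study reports many more GR border pairs after CORT than this list holds, so the list is incomplete. Its 0 is therefore not read as a lack of GR footprints, and its length is not compared with that of the MR list. Input chromatin had 1 of 6351 pairs after vehicle, at Nr1d2, 1 of 5767 after CORT, at Arntl, and 0 of 5509 after washout. The receptor and input lists thus held 0 to 2 pairs each at the 10 genes.

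A further 18 genes linked to the clock were read by the same rule, including paralogs, output factors, kinases and ubiquitin ligases of its proteins. Of these, 11 had a GR peak after CORT, 12 an MR peak after CORT and 5 an MR peak after washout. The shares of all genes were 26.3%, 30.2% and 14.3%. After vehicle, and for GR after washout, 0 of the 18 were listed. Those with all 3 kinds were Arntl2, Tef, Timeless and Usp2, 4 of 18, beside 11.8% of all genes. Tef, a PAR bZIP factor related to Dbp, had 7 GR peaks, 5 MR peaks after CORT and 5 after washout, with strongest −log10 p values of 15.6, 28.0 (rank 251) and 14.8. Usp2, a deubiquitinase, had 9.99, 16.5 and, after washout, 22.2 (rank 238 of 4885). Both were thus near the top of an MR list. Timeless had 13.8, 18.9 and 9.94. Arntl2, the paralog of Arntl, had 1 peak in each of the 3 lists, with 7.38, 9.17 and 7.69. Bhlhe41, Fbxl21, Nfil3 and Rora had no peak in any list, Rora although its gene body is 734461 bp long. Ciart, a repressor of CLOCK and BMAL1 that was singled out after its values were seen, had the highest −log10 p of the 18 for GR after CORT, 25.1 (rank 160), with 19.6 for MR after CORT and no peak after washout. The Ciart gene is 3749 bp long, so most of its window was flank. Positions are not given for peaks of the linked genes, and some may lie in or nearer to another gene.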

How the data were processed

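The authors trimmed and quality filtered the ChIP-nexus reads, aligned them to GRCm38/mm10 with Bowtie2, removed PCR duplicates by random barcode and kept uniquely aligned reads. They combined the 3 replicates of each condition, found peaks against input with MACS2 2.1.1.20160309 at a false discovery rate of 0.05, and ran MACE to pair the exonuclease borders. In the deposited peak files the score is the whole part of 10 times −log10 q, in all but 1 peak (MR washout). The deposited −log10 columns hold the −log10 p and −log10 q of each peak against input, and some stand under other headings. Border pairs were deposited with the MACE p-value, except the GR CORT list, which gives positions only. Peak starts were read as 0-based and are printed 1-based.

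Genes were the protein-coding genes of GENCODE M21. An overlap meant at least 1 bp in common. Percentages carry 95% Wilson intervals, and for a count of 0 the upper limit is 3 counts of the total. Sequence was read from GRCm38 with pysam 0.24.0, promoters came from RefSeq (GRCm38.p6), and the counts were made in Python 3.11.15 with pandas 2.3.3. The scripts were tested on simulated peaks. Depth is not known from these files, and the number of peaks limits the precision. The genes named were the 10 members with every peak, those of 18 linked genes with all 3 kinds of peak, and genes in or nearest which a member's peak lay. Ciart and the linked genes with no peak were named after their values were seen. Some linked genes of the original list are not reported here, for a reason unrelated to their values. The members and lists were chosen with earlier results of these data known. Alternatives changed the threshold, the treatment of vehicle peaks, the window, the overlap rule, the list lengths and the GRE definition. No clock-gene peak overlapped a vehicle peak, so leaving out such peaks could not change a result at these genes. The share at all protein-coding genes under each overlap alternative was added after seeing the data.

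The plasmids carried rat receptors according to the study's methods, and the text deposited with the data names mouse receptors.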

Additional observations from a re-analysis of the deposited data

How the results depend on the processing

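Of 103 values under alternatives over 19 results, 40 belonged to counts of 0 and stayed 0, and 2 were GR values that cutting the MR lists could not change. Of the other 61, 47 stayed close to the reported value and 14 moved. A count was close if within 1.5 times the reported count, and a percentage if inside the reported 95% Wilson interval. Those intervals are wide, so the fall from 75% to 50% of MR washout peaks with a GRE, at a −log10 q of at least 5, was counted as close. Values that leaving out vehicle peaks could not change are also among the 47. The 14 MR CORT peaks became 8 with a −log10 q of at least 5, 9 with summits within 5 kb, 9 where the nearest transcript start was the clock gene's, and 9 with the MR lists cut to the length of the GR lists. The 8 MR washout peaks became 4, 5 and 1 under the first, second and last of these, and the 4 genes with an MR washout peak became 1 (Nr1d1) when that list was cut to its 246 strongest peaks. The last change follows from the shorter list, and the peak left was the one in a Thra intron. With summits within 5 kb, or with the nearest transcript start the clock gene's, the 4 genes became 3, without Nr1d1. The share of peaks with a GRE went from 53.8% to 23.1% with at most 2 mismatches and 84.6% with at most 4 for GR CORT, from 42.9% to 14.3% and 92.9% for MR CORT, and from 75% to 37.5% and 100% for MR washout, as the definition fixes. The number of genes with a GR or MR peak after CORT stayed within 1.5 times under every alternative run. No paired analysis was possible because each condition is 1 list of combined replicates. Depth and its part in which weak peaks were listed could not be assessed, and leaving out a replicate was not run for the same reason.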
